A study of Danio rerio with 21 samples.

Results

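Chemokine receptors were taken from the gene table of a zebrafish (Danio rerio) single-cell RNA-seq series as every feature whose symbol begins with ccr, cxcr, xcr or ackr followed by a digit, in upper or lower case. Of 27758 features, 29 matched, and all 29 held at least 10 unique molecular identifiers (UMIs, which count each captured transcript end once) over the 21 libraries. Of these 29, 28 are written in lower case and the last is ACKR2. The symbols cxcr3.1 and ccr2 each name a pair of gene identifiers, which were kept apart.

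The cells were sorted for a heritable mCherry mark placed on hematopoietic stem and progenitor cells (HSPCs) at an age in days post fertilization (dpf) of 1 (called the early label), 2 (the mid label) or 3 (the late label). The 9 larval libraries came from whole larvae sampled the day after labelling (2, 3 or 4 dpf) and at 6 and 10 dpf. The 4 crispant libraries carried the early label and were taken at 8 dpf from larvae injected against slc24a5, a pigment gene that serves as the control, or against rag1, the recombinase that assembles antigen receptors, in each case untreated or given 25 µM R848 (resiquimod, a Toll-like receptor agonist) at 6 dpf. The labels call the rag1 larvae mosaic mutants, so their cells can carry different alleles. The 8 adult libraries came from thymus, kidney marrow, the tessellated lymphoid network (TLN) and intestine of fish 4 months old with the early or the late label, and all share the mark and the sort. Every group held 1 library, so no difference below has a replicate check and none was tested. Intervals are 95% and cover counting error only.

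Libraries held 769 to 25559 kept cells, with 185939 in all, and the median UMIs per cell ranged from 1164 to 12997.5. The barcodes shared between any pair of libraries amounted to at most 0.977% of the smaller one. Although the labels name blood and immune cells, clusters with endothelial, mesenchymal, epithelial and neural markers were present. Clusters without a clear set of markers stayed unnamed and held 9.44% to 51.0% of a library's cells. Clusters of T-lineage cells and those of natural killer cells or innate lymphoid cells (NK/ILC) were joined into a single class, called T and NK/ILC cells here, since several clusters carried markers of both.

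Chemokine receptors are G-protein-coupled receptors through which cells migrate along gradients of secreted chemokines. Cxcr4 binds Cxcl12 and holds HSPCs and neutrophils in blood-forming tissue. Ccr9 binds Ccl25 and guides progenitors to the thymus. Cxcr1 and Cxcr2 bind Cxcl8 and draw neutrophils to inflamed sites. Ccr7 binds Ccl19 and leads lymphocytes into lymphoid tissue in mammals. The atypical receptors (ackr) take up chemokines without G-protein signalling and so shape the gradients.

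Levels are the UMIs of a gene over all UMIs of a class in a library, on the usual CPM scale, given for classes of at least 50 cells. A 3′ UMI stands for a transcript end whatever the length of the gene, so CPM is not divided by length, and the capture of different genes' ends can still differ. The 29 receptors held 1676007 UMIs, and ccr9a with cxcr4b made up 86.4% of them. Over 41 entries of a class in a set of libraries, ccr9a was the highest receptor in 19, cxcr4b in 14, ackr3b in 7 and ccr9b in 1. The ccr9b entry was the intestinal erythroid class, with 2 UMIs of ccr9b and 1 of ccr9a in 78 cells of 1 library. At the other end, xcr1b.1 had 164 UMIs, cxcr5 269, ccr8.1 329, ccr11.1 410 and ackr4a 411. A UMI was present in all 21 libraries for 16 receptors, and each of the others had a UMI in at least 15 libraries.

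**Figure D1:**
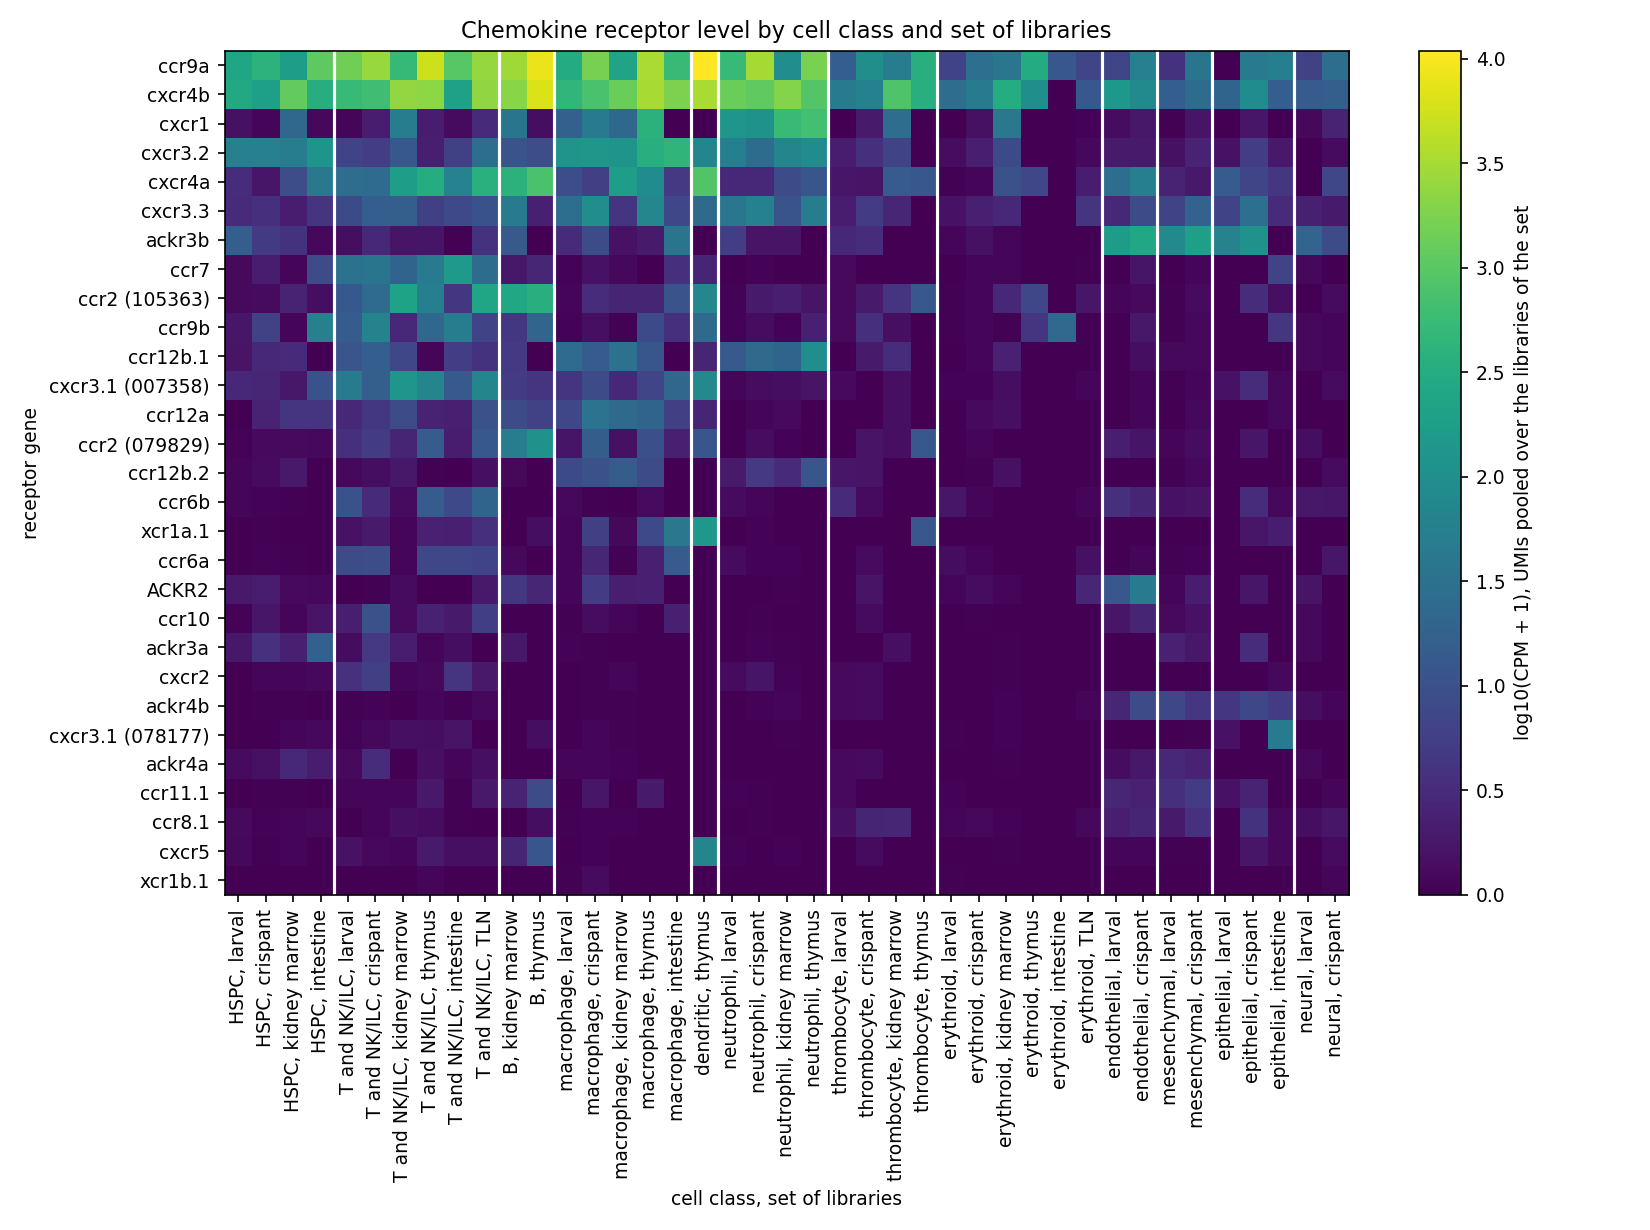
Level of each of the 29 receptors (rows, ordered by total UMIs, the last 6 digits of the identifier given for the paired symbols) in each class and set of libraries (columns), as log10(CPM + 1) with UMIs pooled over the libraries of the set. The ccr9a and cxcr4b rows are the highest over most immune columns, and the ackr3b row is high in the endothelial, mesenchymal and epithelial columns.

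Among receptors with a role in retention and homing, cxcr4b was at least 160 CPM in every measured T and NK/ILC, B, macrophage and neutrophil class. In T and NK/ILC cells cxcr4b lay between 462 and 666 CPM in the 6 larval libraries and between 569 and 676 CPM in the 4 crispant libraries. In adults it stood at 1857 (early label) and 3274 CPM (late label) in kidney marrow, 2365 and 2074 CPM in thymus, 2255 and 2531 CPM in TLN, but 249 and 160 CPM in intestine. Larval neutrophils held 649 to 2164 CPM, crispant neutrophils 1039 to 1202 CPM, and kidney marrow neutrophils 1749 and 2137 CPM. In kidney marrow T and NK/ILC cells the 15 neutrophil markers summed to 19790.0 (early label) and 17100.0 CPM (late label). Their T-lineage markers summed to 1716 and 2404 CPM, and the part of neutrophil RNA in the values of this class was not tested. The highest cxcr4b levels belonged to thymus B cells, at 6104 and 7272 CPM. Erythroid cells, taken as the gauge of free RNA, showed 5.85 to 61.7 CPM of cxcr4b in larvae and crispants, and 112 (early label) and 398 CPM (late label) in kidney marrow.

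The paralogue cxcr4a had a narrower range of cells. It made up 12% to 14.8% of the cxcr4a and cxcr4b UMIs of TLN T and NK/ILC cells and 19.7% to 27.5% in intestine, against at most 0.679% in larval neutrophils and at most 0.561% in kidney marrow neutrophils. B cells held cxcr4a at 306 and 611 CPM in kidney marrow and 848.3 and 697 CPM in thymus. Thymus dendritic cells, measured in the early-label library, reached 871 CPM. The macrophage class held cxcr4a at 136 and 248 CPM in kidney marrow, 104 and 47.5 CPM in thymus, but 6.07 and 2.06 CPM in intestine, where these values rest on 2 and 1 UMIs. In kidney marrow this class carried more neutrophil than macrophage marker UMIs, and the part of the cell mix was not tested. In the comparison of adult tissues below, thymus over intestine was no longer counted at a minimum of 50 UMIs, with sums thinned to equal totals or with unnamed clusters added. Among the crispant endothelial cells cxcr4a made up 23.4% to 47.0% of the pair.

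For the thymus-homing pair, ccr9a far exceeded ccr9b. In T and NK/ILC cells ccr9a stood at 984 to 1667 CPM in larvae, 500 and 531 CPM in kidney marrow, 1027 and 932 CPM in intestine, 2511 and 2488 CPM in TLN and 5732 and 4544 CPM in thymus. Its reach went well beyond T cells. Thymus B cells held 8367 and 8076 CPM, kidney marrow B cells 2943 and 2865 CPM, thymus macrophages 3553 and 2912 CPM, and the 1 measured thymus dendritic class 10950.0 CPM, the highest receptor level of any class. Crispant neutrophils carried ccr9a at 2766 to 3822 CPM and larval neutrophils at 133 to 964 CPM, whereas kidney marrow neutrophils had 97.2 and 92.6 CPM. Kit and age differ between the larval and crispant libraries and cannot be told apart from the set. Erythroid ccr9a was 0.308 to 16.9 CPM in larvae, 17.2 to 37.3 CPM in crispants, 14.4 and 48.2 CPM in kidney marrow and 306 CPM in the early-label thymus. In thymus the lowest of the measured classes was this erythroid one, and the part of free RNA there was not tested.

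The second copy, ccr9b, was the lesser of the pair in the T and NK/ILC and HSPC classes, where ccr9a took 94.3% or more of the pair. In the crispants a T-lineage cluster with rag1, rorc, lck and cd4-1 among its leading genes, which are genes of developing thymocytes, held 53.9% of all ccr9b UMIs at 455 CPM. A larval T-lineage cluster with rag1 among its leading genes held ccr9b at 431 CPM in 84 cells, or 16.4% of larval ccr9b UMIs, and an unnamed larval cluster 9 gave 42.4% at 21.4 CPM. In adults ccr9b stood at 41.3 and 56.5 CPM in intestinal T and NK/ILC cells and at 14.6 and 35.5 CPM in those of thymus, against 0.509 and 4.18 CPM in kidney marrow and 3.51 and 8.60 CPM in TLN. The cells of the intestine that carried HSPC markers showed ccr9b at 57.0 and 57.1 CPM, while kidney marrow HSPCs had 0.132 and 0.282 CPM. The same intestinal cells held ackr3a at 17.4 and 16.6 CPM, against 0.857 and 1.88 CPM in kidney marrow.

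Among the inflammatory receptors cxcr1 was found in neutrophils and in macrophages, and the order of these classes differed between sets. Untreated crispant macrophages held more of it than the crispant neutrophil class, with the values given beside R848. An unnamed crispant cluster with most markers in common with neutrophils, left out of that class, held more cxcr1 untreated than these macrophages. In intestine 79.2% of cxcr1 UMIs lay in an unnamed cluster with mrc1b, c1qb and csf1ra among its leading genes. Kidney marrow neutrophils held cxcr1 at 372 and 652 CPM and thymus neutrophils at 662 and 724 CPM. Macrophage values ran from 0 UMIs in 82 and 97 intestinal cells to 438 and 214 CPM in thymus. In kidney marrow the other classes could not be read, because late-label erythroid cells, which should lack the gene, held cxcr1 at 52.4 CPM with a UMI in 42.8% of cells, close to the 45.7 CPM of macrophages, 60.7 CPM of B cells and 89.5 CPM of T and NK/ILC cells. The early-label erythroid value was 7.07 CPM. The 15 neutrophil markers together stood at 6469 CPM (early label) and 13580.0 CPM (late label) in these erythroid cells, and the part of neutrophil RNA in the kidney marrow values was not tested. In larvae no erythroid cell held a cxcr1 UMI, and TLN erythroid cells had 0.104 and 0.0598 CPM.

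In the named neutrophil classes the related receptor cxcr2 was the lesser of the pair. Crispant neutrophils held cxcr2 at 0.323 to 2.26 CPM, and cxcr1 took 98.1% to 99.8% of the UMIs of the pair there. T-lineage clusters with il13, a type 2 cytokine, among their leading genes gave 77.1% of larval and 54.3% of crispant cxcr2 UMIs. Levels there reached 13.5 and 17.8 CPM. In intestine 46.2% came from a T-lineage cluster with il17a/f3 among its leading genes, at 32.7 CPM. In kidney marrow 69.6% of cxcr2 UMIs lay in an unnamed cluster. With unnamed clusters put into classes, cxcr2 was counted, by the rule used for adult tissues below, as higher in the neutrophil class of intestine than of kidney marrow or thymus. That intestinal class could be compared only with unnamed clusters added, among them a cluster with spink2.4 and si:dkey-77g12.4 among its leading genes. The unnamed kidney marrow cluster shares these leading genes but was put into HSPCs. The part of this placing of clusters in the cxcr2 difference was not tested. Clusters with il13 among their leading genes also held ccr12b.1, at 58.2 CPM in larvae, 79.9 CPM in crispants and 161 CPM in intestine, where that cluster gave 82.9% of ccr12b.1 UMIs.

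Receptors found in macrophages included cxcr3.2, cxcr3.3 and the ccr12 genes. Of these, ccr12b.1 stood higher in the crispant cluster with il13 described above than in crispant macrophages. In zebrafish, Cxcr3.2 draws macrophages to Cxcl11 chemokines and Cxcr3.3 acts as a scavenger of them. Macrophage cxcr3.2 lay between 81.6 and 198 CPM in 7 larval libraries, between 117 and 167 CPM in crispants, and at 135 and 101 CPM in kidney marrow, 367 and 232 CPM in thymus and 337 and 500 CPM in intestine. HSPCs held cxcr3.2 as well, at 23.0 to 115 CPM in larvae and 49.5 to 67.2 CPM in crispants, with almost no cxcr3.3 beside it, since cxcr3.2 took 94.8% to 98.0% of the pair in the crispant HSPCs. In macrophages the share of cxcr3.2 differed by set, at 46.4% to 62.1% of the pair in crispants, 67.6% to 91.9% in larvae, 74.5% to 83.8% in thymus, 96.2% to 98.0% in kidney marrow and 98.2% to 98.8% in intestine. Crispant macrophages held ccr12a at 31.5 to 52.6 CPM, ccr12b.1 at 9.56 to 20.5 CPM and ccr12b.2 at 5.93 to 10.6 CPM, all with erythroid levels of at most 0.306 CPM for ccr12a.

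Lymphocyte receptors differed in which T and NK/ILC clusters held them. In the thymus, cxcr3.1 (ENSDARG00000007358) was highest in an NK/ILC cluster led by gzma and gzmk, at 163 CPM, which gave 57.0% of its UMIs. In the same tissue ccr6b and ccr6a, whose mammalian relative binds Ccl20, peaked in a cluster led by ccl20a.3 with rorc and il23r, at 144 and 57.8 CPM, and that cluster gave 90.4% of ccr6b and 78.2% of ccr6a UMIs. In the intestine 83.4% of ccr6b UMIs came from a rorc-expressing T-lineage cluster of 185 cells at 206 CPM, while 51.0% of ccr6a UMIs came from the cluster with il17a/f3, at 48.4 CPM. The ccl20a.3 ligand itself was high in T and NK/ILC cells, at 1178 CPM in the early-label and 213 CPM in the late-label intestine, and at 1430 CPM in the early-label larvae of 10 dpf. A TLN cluster of 84 cells led by ccl36.1 and il2rb held ccr2 (ENSDARG00000105363) at 779 CPM, or 60.3% of its TLN UMIs. In T and NK/ILC cells ccr10 ranged from 3.51 to 14.5 CPM in crispants and was at most 2.09 CPM in larvae.

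The copies behind both paired symbols were unequal, and which was the greater differed between classes and sets. The cxcr3.1 of ENSDARG00000007358 made up 99.2% to 100% of the pair in T and NK/ILC cells of larvae, kidney marrow and thymus, while the cxcr3.1 of ENSDARG00000078177 took all but 0.595% or less in intestinal epithelial cells, at 43.3 and 46.4 CPM. The ccr2 of ENSDARG00000105363 was the greater in B cells, at 229 and 343 CPM in kidney marrow against 52.7 and 40.5 CPM of the ccr2 of ENSDARG00000079829. In crispant macrophages the order was the other way, with ENSDARG00000079829 taking 84.1% to 91.7% of the ccr2 pair, and likewise 82.1% in the 1 thymus macrophage class with enough UMIs. In kidney marrow macrophages, however, it took 12% to 33.3%, the same order as in B cells. Erythroid cells of kidney marrow, the gauge of free RNA, showed this order too, with 1.03% in the 1 library with enough UMIs. The part of free RNA in the macrophage values was not tested. Where copies are nearly identical the counting could divide their reads, and the likeness of these pairs was not examined.

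Over the 21 libraries xcr1a.1 had 1211 UMIs, ccr11.1 410, ccr8.1 329, cxcr5 269 and xcr1b.1 164. The ccr9a levels of thymus dendritic and B cells, given above, were far higher than the levels that follow. In the early-label thymus dendritic class xcr1a.1 stood at 142 CPM and cxcr5 at 67.8 CPM, where in mammals XCR1 marks cross-presenting dendritic cells and CXCR5 leads B cells into follicles. Thymus B cells held cxcr5 at 10.8 and 11.3 CPM. The other copy, xcr1b.1, was at 0 UMIs in the dendritic class. However, an unnamed thymus cluster with most markers in common with dendritic cells was left out of that class. It held 83.2% of thymus xcr1b.1 and 51.6% of thymus xcr1a.1 UMIs. Thymus B cells showed ccr11.1 at 6.50 and 8.46 CPM. Larval and crispant mesenchymal cells held low ccr11.1 and ccr8.1, with the highest values at 5.37 CPM and 5.08 CPM.

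Of the atypical receptors, ackr3b and ACKR2 were highest in endothelial cells in the crispants. In crispants ackr3b, a scavenger of Cxcl12, lay between 239 and 277 CPM in endothelial cells and between 172 and 224 CPM in mesenchymal cells, against 0.323 to 0.904 CPM in neutrophils and 0.753 to 3.73 CPM in T and NK/ILC cells. In larvae the mesenchymal level of ackr3b was 22.8 CPM at 2 dpf and 80.1 to 175 CPM in the other 7 libraries. The larval endothelial level of ackr3b ran from 23.2 to 237 CPM over 5 libraries, so the ranges overlapped. The ligand cxcl12a was highest in mesenchymal cells, at 1083 to 1584 CPM in crispants, and so was ccl25b, at 542 to 998 CPM. Crispant endothelial cells held ACKR2 at 27.8 to 53.9 CPM and ackr4b at 5.58 to 12.2 CPM, and intestinal epithelial cells held the ligand ccl25a at 158 and 155 CPM.

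R848 was compared with no treatment within each genotype. A receptor was counted when its higher library had at least 20 UMIs and the ratio of CPM + 5 was 2-fold or more in the same direction in both genotypes. Of 62 receptor-by-class entries 1 was counted, beside 3.1% of all entries of all genes (2554 of 82459). It was cxcr1 in macrophages, where 15.8% of all genes were counted in either direction and 3.84% as lower. In slc24a5 crispants macrophage cxcr1 was 219 CPM untreated (395 UMIs, 145 cells) and 21.8 CPM under R848 (614 UMIs, 1511 cells). In rag1 crispants it was 300 CPM untreated (657 UMIs, 168 cells) and 30.8 CPM under R848 (538 UMIs, 987 cells). Both treated libraries lay below both untreated libraries, with log2 differences of -3.06 and -3.09 and fold intervals of 0.0879 to 0.114 and 0.0915 to 0.115. Erythroid cxcr1 was 0.25 to 0.696 CPM in the 4 libraries.

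The difference in cxcr1 lay in some macrophage clusters and not in others. In cluster 5, which held most macrophages, the level was 294 CPM untreated and 26.4 CPM treated in slc24a5 crispants, and 375 and 39.0 CPM in rag1 crispants. In cluster 26, led by apoc1 and abca1b of lipid handling, it was 104 CPM untreated and 116 CPM treated in slc24a5 crispants, and 143 and 154 CPM in rag1 crispants. Cluster 26 made up 47.6% and 47.0% of untreated macrophages but 13.8% and 8.5% of treated ones. Cluster 27, led by histone genes, made up 1.4% and 1.8% of untreated but 17.6% and 16% of treated macrophages, at 7.84 and 3.90 CPM of cxcr1 under R848. Cluster 16, which stayed unnamed and had most markers in common with macrophages, showed 15.8 CPM untreated and 3.27 CPM treated in slc24a5 crispants, and 39.8 and 1.12 CPM in rag1 crispants. The 15 neutrophil markers together stood at 2779 and 3107 CPM in untreated macrophages and 2673 and 2469 CPM in treated ones, while the macrophage markers were at 8403 and 10340.0 CPM untreated and 17390.0 and 16630.0 CPM treated. The dendritic markers, which share cd74a with the macrophage list, were lower along with cxcr1. They summed to 1462 and 1337 CPM untreated and 588 and 630 CPM treated. The part of the cell mix in the cxcr1 difference was not tested beyond the values within clusters.

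**Figure D2:**
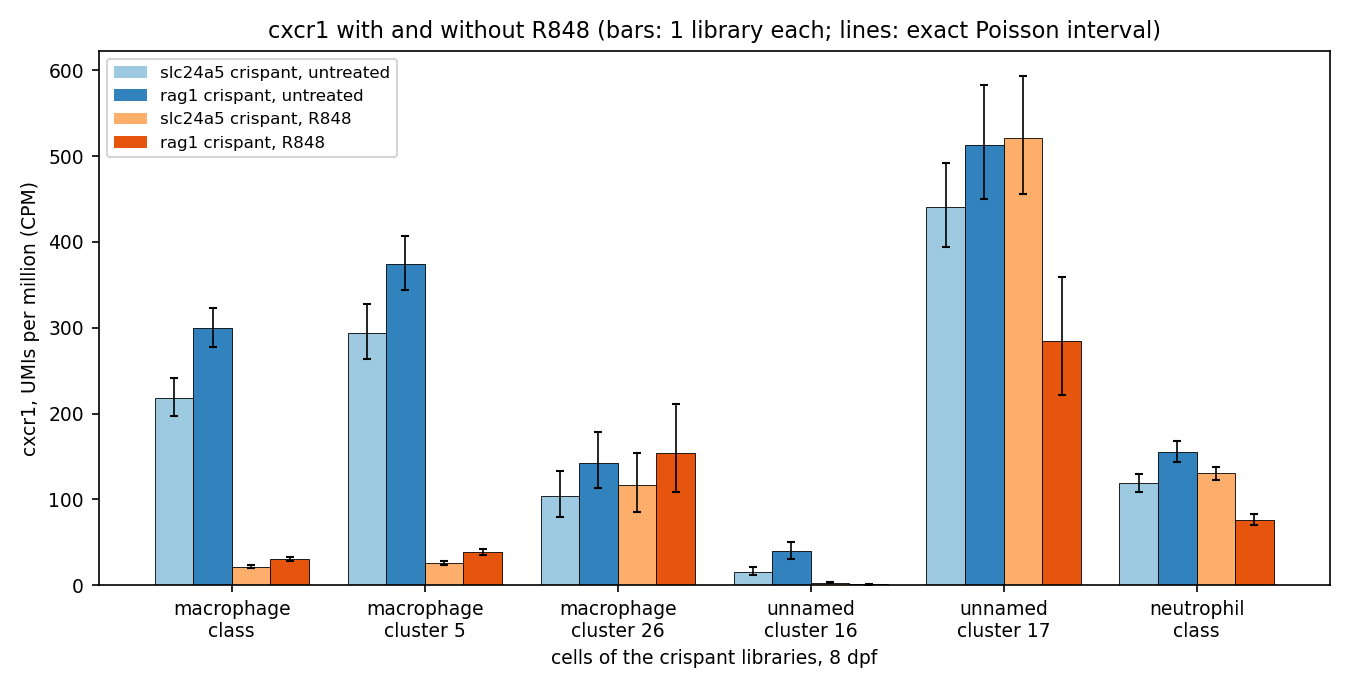
Level of cxcr1 (vertical axis, CPM) in the macrophage and neutrophil classes and in single clusters of the 4 crispant libraries at 8 dpf; each bar is 1 library and each line its exact Poisson interval. In the macrophage class the untreated bars stand at 219 and 300 CPM and the R848 bars at 21.8 and 30.8 CPM, whereas cluster 26 lies between 104 and 154 CPM in all 4.

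In neutrophils cxcr1 was 119 and 156 CPM untreated and 130 and 76.4 CPM under R848 in slc24a5 and rag1 crispants, so the groups overlapped. Cluster 17, which stayed unnamed and had most markers in common with neutrophils, held cxcr1 at 441 and 513 CPM untreated and 521 and 284 CPM treated. In T and NK/ILC cells 0 of 16 receptors were counted, beside 2.21% of all genes. There ccr9a was 3057 and 3110 CPM untreated against 1974 and 2131 CPM under R848, a difference short of 2-fold and not counted. The T and NK/ILC level of cxcr3.1 (ENSDARG00000007358) was 11.4 and 6.21 CPM untreated against 23.4 and 20.5 CPM treated, and was also not counted. The median log2 difference of the 11 macrophage receptors compared was -0.20, and that of all genes compared there was 0.37. The treated libraries held more macrophages, so a gene reached the minimum of 20 UMIs at a lower CPM there. Both medians, and the shares of macrophage genes counted as higher and as lower, carry this imbalance, and its part was not tested.

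The chemokine ligands and signalling genes were compared in the same way. Of the 49 listed ligands 28 were compared in macrophages, where 5 were counted as higher, cxcl11.1 among them, and 3 as lower, cxcl19 and cxcl8a among them, beside 11.9% and 3.84% of all genes. Macrophage cxcl19 was 3601 and 5235 CPM untreated and 1359 and 1017 CPM treated. In T and NK/ILC cells 8 of 20 ligands were counted as higher, beside 1.99% of all genes, and 0 as lower. Of these, ccl34b.8 and ccl35.1 were also counted as higher in HSPCs, neutrophils, erythroid and mesenchymal cells. In erythroid cells 4 of 20 ligands were counted as higher, beside 0.512% of all genes. Macrophage markers in T and NK/ILC cells summed to 189 and 202 CPM untreated and 412 and 402 CPM treated, and the part of RNA from other cells was not tested. Of 26 listed signalling genes 21 were compared in macrophages, with rgs18 and arrb2a counted as higher, beside the same 11.9%.

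The rag1 crispants were compared with the slc24a5 crispants within each treatment. The targeted transcript was checked first: in T and NK/ILC cells rag1 was 83.7 CPM untreated and 59.9 CPM with R848 in slc24a5 crispants, against 24.1 and 26 CPM in rag1 crispants. A 3′ count does not show whether an allele was cut. The rag1-positive cluster described below also made up less of this class in rag1 crispants, so the rag1 level of the class cannot be told apart from the cell mix. The slc24a5 transcript had 19 to 35 UMIs per library over all cells and checks nothing. Of 56 receptor-by-class entries 3 were counted, all lower in rag1 crispants, beside 0.209% of all entries of all genes. They were ccr9b and cxcr4a in T and NK/ILC cells, where 2 of 14 receptors and 0.609% of all genes were counted as lower, and ccr9a in thrombocytes, where 0.214% of genes were.

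Untreated, ccr9b of T and NK/ILC cells was 80.0 CPM in slc24a5 crispants (707 UMIs, 1319 cells) and 34.2 CPM in rag1 crispants (220 UMIs, 670 cells). With R848 ccr9b was 79.3 CPM (749 UMIs, 1987 cells) and 36.1 CPM (192 UMIs, 863 cells). The log2 differences were -1.12 and -1.03, with fold intervals of 0.365 to 0.498 and 0.387 to 0.535. With median-of-ratios scaling, a strict cell filter or finer clustering ccr9b was no longer counted. The rag1-positive cluster 24 was both smaller and lower in rag1 crispants. It made up 17.6% of slc24a5 and 5.7% of rag1 T and NK/ILC cells untreated, and 13.9% and 5.6% with R848. Within it ccr9b was 536 against 243 CPM untreated and 594 against 260 CPM with R848. In cluster 11, led by nitr5, il7r and ccl20a.3, ccr9b was 25.3 against 27.6 CPM untreated and 24.5 against 21.6 CPM with R848.

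For cxcr4a the T and NK/ILC values were 28.4 CPM in slc24a5 crispants and 8.85 CPM in rag1 crispants untreated, and 38.5 and 13.7 CPM with R848. The log2 differences were -1.27 and -1.22, with fold intervals of 0.230 to 0.417 and 0.273 to 0.459, and the genotypes did not overlap. The difference appeared in several clusters. In cluster 9, a T-lineage cluster, cxcr4a was 118 against 24.5 CPM untreated, the second value resting on 2 UMIs, and 106 against 43.0 CPM with R848. In cluster 11 it was 36.3 against 8.14 CPM untreated and 33.8 against 10.5 CPM with R848. In cluster 18, a T-lineage cluster with il4 and il13 among its leading genes, it was 14.1 against 6.42 CPM untreated and 45.6 against 14.7 CPM with R848. In cluster 24 it rested on 11 against 0 UMIs untreated and on 2 against 1 with R848. In cluster 14, with il2rb and tnfsf14 among its leading genes, it was 8.19 against 15.3 CPM and 11.5 against 12.6 CPM. The T-lineage marker list, which holds the targeted rag1 itself, summed to 1705 and 2038 CPM in slc24a5 crispants and to 1114 and 1129 CPM in rag1 crispants. The NK/ILC list summed to 953 and 1404 CPM in slc24a5 crispants and to 1254 and 1292 CPM in rag1 crispants. The B list, which also holds rag1, summed to 93.9 and 78.0 CPM against 30.7 and 59.7 CPM, and the part of the cell mix in both receptor differences was not tested beyond the values within clusters.

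**Figure D3:**
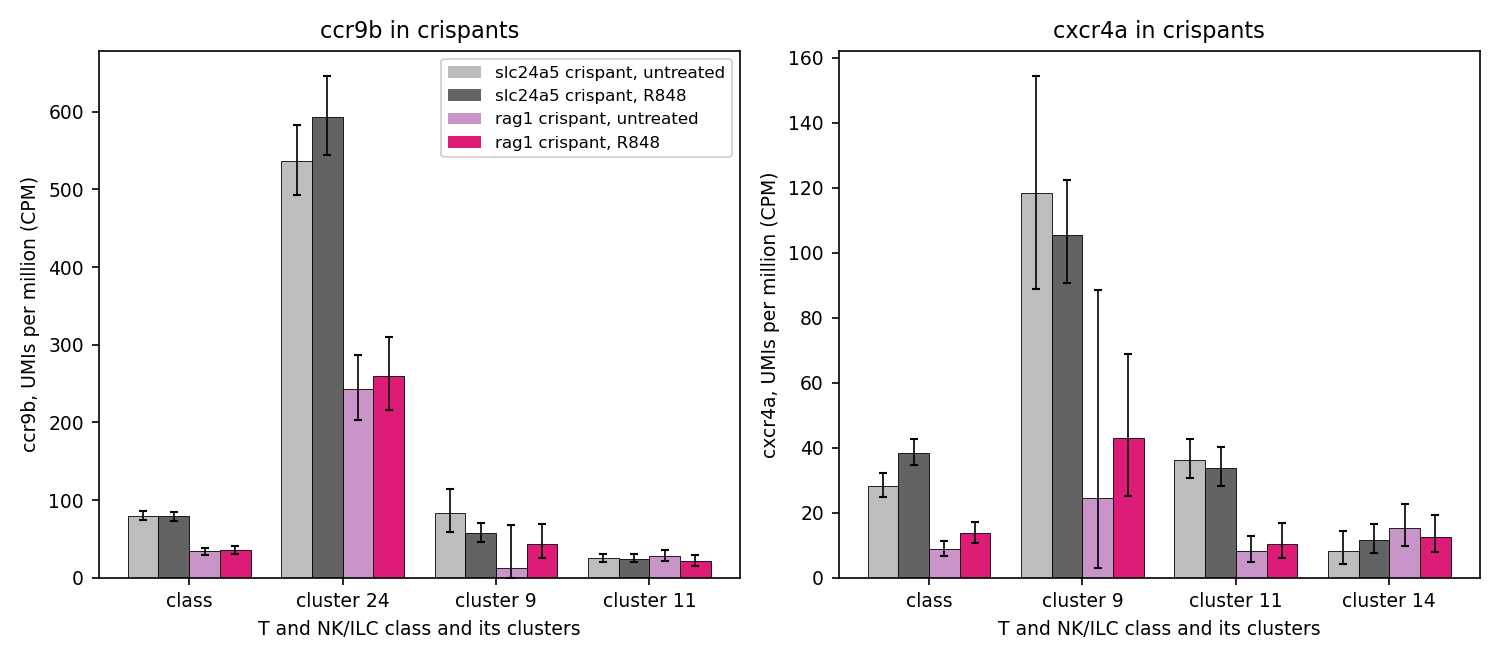
Levels of ccr9b (left) and cxcr4a (right) in CPM in the T and NK/ILC class and in 3 of its clusters, for the 4 crispant libraries; each bar is 1 library and each line its exact Poisson interval. In cluster 24 ccr9b is 536 and 594 CPM in slc24a5 crispants and 243 and 260 CPM in rag1 crispants, while the cluster 11 bars of ccr9b lie between 21.6 and 27.6 CPM.

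Thrombocyte ccr9a was 170 CPM in slc24a5 and 57.2 CPM in rag1 crispants untreated (148 and 46 UMIs), and 106 and 45.6 CPM with R848 (67 and 33 UMIs), with log2 differences of -1.49 and -1.14. It was no longer counted without doublet removal. Over all kept cells of the libraries the order of ccr9a was the other way, at 591 CPM in slc24a5 and 786 CPM in rag1 crispants untreated and 876 and 967 CPM with R848. The erythroid ccr9a of the same libraries was 27.6 against 17.2 CPM and 37.3 against 27.8 CPM, in the same direction. T-lineage markers in the thrombocytes summed to 132 against 65.9 CPM untreated and 71.4 against 62.1 CPM with R848, and the part of RNA from other cells was not tested.

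Early and late labels were compared in larvae at 6 and at 10 dpf. The late larval libraries were processed with another software version, which cannot be told apart from the label. Of 32 receptor-by-class entries 3 were counted, beside 3.21% of all entries of all genes. T and NK/ILC cxcr4a was higher with the early label, at 23.2 CPM (130 UMIs, 622 cells) against 6.36 CPM (6 UMIs, 114 cells) at 6 dpf and 36.9 CPM (336 UMIs, 1195 cells) against 9.24 CPM (11 UMIs, 194 cells) at 10 dpf. The mid label lay between, at 19 and 17.5 CPM. The log2 differences of cxcr4a were 1.31 and 1.56, and 3.64% of all genes were counted in this class. Of the early-label UMIs 124 and 314 sat in cluster 7, which has ccl20a.3 and tcf7 among its leading genes, with cxcr4a at 38.7 and 52.1 CPM. That cluster made up 55.0% and 62.9% of early-label but 11.4% and 23.2% of late-label T and NK/ILC cells, and it held 0 cxcr4a UMIs in 45 cells of the late-label library at 10 dpf. In clusters 12 and 17 at 10 dpf the order of cxcr4a was the other way, on few UMIs, at 7.29 against 13.4 CPM (16 and 6 UMIs) in the first and 5.71 against 11.6 CPM (5 UMIs each) in the second. The T-lineage markers of the class summed to 1685 and 1246 CPM with the early and 594 and 911 CPM with the late label, and the part of the cell mix in the cxcr4a difference was not tested.

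In endothelial cells cxcr4b and ACKR2 were counted, of which only cxcr4b had a fold interval clear of 1, in a class where 13.1% of all genes were counted in either direction. Endothelial cxcr4b was 9.99 CPM (3 UMIs, 87 cells) with the early and 134 CPM (252 UMIs, 392 cells) with the late label at 6 dpf. At 10 dpf it was at 0 UMIs in 76 early-label cells and at 173 CPM (392 UMIs, 410 cells) with the late label, and the late label had 160 CPM at 4 dpf. The fold of early over late lay between 0.0152 and 0.220 at 6 dpf and was at most 0.0993 at 10 dpf. ACKR2 had 0 UMIs in both early-label libraries against 23 and 32 UMIs, or 12.3 and 14.1 CPM, with the late label. The fold intervals of ACKR2 reached 1.09 and 1.28, so its difference was not detectable at this depth, and it was no longer counted at a minimum of 50 UMIs or with sums thinned to equal totals. The late-label cxcr4b sat in cluster 14, led by cdh5, flt1 and kdrl, at 313 and 203 CPM, where the early label had 8.11 CPM and 0 UMIs. Cluster 16, led by flt4, stab1 and lyve1b, of lymphatic and venous vessels, held at most 2 cxcr4b UMIs in each of these libraries. Cluster 14 made up 37.9% and 27.6% of early-label and 33.2% and 81.0% of late-label endothelial cells. The endothelial marker list summed to 5143 and 3650 CPM with the early and 3913 and 3553 CPM with the late label. In mesenchymal cells the ligands cxcl12a, cxcl12b and ccl25b were the 3 of 8 compared that were counted, all lower with the early label, beside 1.27% of all genes counted as lower.

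**Figure D4:**
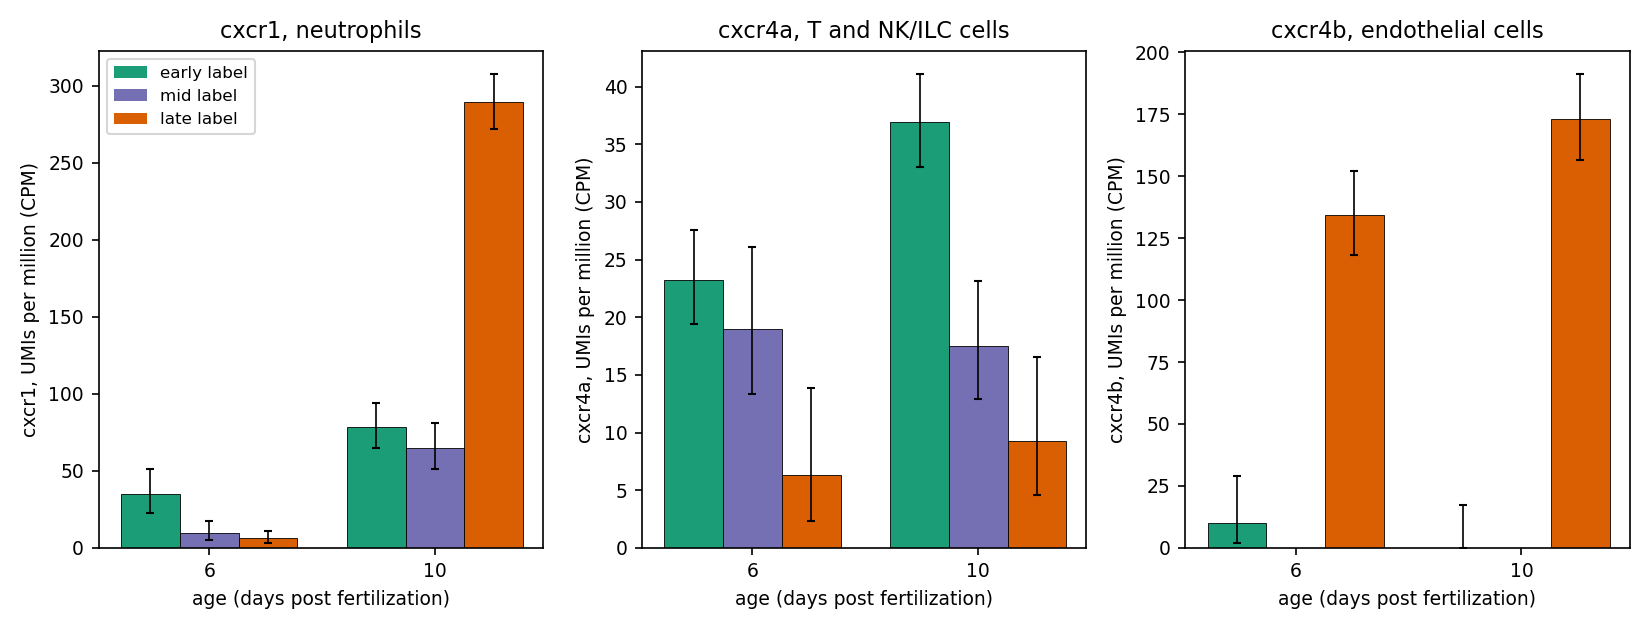
Levels in CPM of cxcr1 in neutrophils, cxcr4a in T and NK/ILC cells and cxcr4b in endothelial cells at 6 and 10 dpf, by label, for classes of at least 50 cells; each bar is 1 library and each line its exact Poisson interval. The cxcr1 bars are higher at 10 than at 6 dpf with every label, up to 289 CPM, and the cxcr4b bars with the late label are 134 and 173 CPM.

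Larvae of 6 and 10 dpf were compared within each of the 3 labels. Of 22 receptor-by-class entries 1 was counted, beside 0.914% of all entries of all genes, and it was cxcr1 in neutrophils, where 1.37% of genes were counted. Neutrophil cxcr1 was 35.0 CPM (26 UMIs, 58 cells) at 6 dpf and 78.3 CPM (118 UMIs, 122 cells) at 10 dpf under the early label. For mid-label cells the pair of values was 9.83 CPM (11 UMIs, 60 cells) and 65.0 CPM (77 UMIs, 138 cells). With the late label it was 6.35 CPM (13 UMIs, 189 cells) and 289 CPM (1056 UMIs, 853 cells). All 3 libraries of 10 dpf lay above all 3 of 6 dpf, and the log2 differences were 1.06, 2.24 and 4.70. The fold intervals ran from 1.45 to 3.56, from 3.5 to 13.8 and from 26.5 to 85.9. Under a strict cell filter it was no longer counted. The 15 neutrophil markers summed to 93180.0, 77160.0 and 143300.0 CPM at 6 dpf and to 67530.0, 117900.0 and 93420.0 CPM at 10 dpf for the early, mid and late label, so they did not move in the same direction in all 3. Median UMIs per neutrophil were lower at 10 dpf, at 7522.5, 3655 and 2751 against 9664, 19498.5 and 10430.0, and their part in the cxcr1 values was not tested. In the same cells ccr9a was higher with the early than the mid label at both ages, at 964 against 293 CPM and 303 against 133 CPM, the 1 receptor of 30 entries counted between these labels, beside 0.563% of all entries.

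Early and late labels were also compared in adults, over every tissue in which a class had enough cells. Of 31 receptor-by-class entries 0 were counted, beside 0.726% of all entries of all genes. The nearest was ccr7 in T and NK/ILC cells. It was 9.42 CPM (37 UMIs) with the early and 35.6 CPM (85 UMIs) with the late label in kidney marrow, 28.2 CPM (277 UMIs) and 76.6 CPM (375 UMIs) in thymus, 90.3 CPM (2456 UMIs) and 209 CPM (5396 UMIs) in intestine, and 20.3 CPM (52 UMIs) and 33.9 CPM (67 UMIs) in TLN. The late label was higher in all 4 tissues, with log2 differences of early over late of -1.49, -1.30, -1.17 and -0.62, of which the last fell short of 2-fold. In larvae the order of ccr7 was the other way, at 39.3 against 12.7 CPM at 6 dpf and 32.6 against 18.5 CPM at 10 dpf. The 12 ligands compared in adult T and NK/ILC cells had 0 counted in either direction.

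Adult tissues were set side by side class by class, with both labels required to give the same direction. Each tissue was clustered on its own, so the clusters behind a class differ between tissues, and the pairs of tissues share libraries. Kidney marrow T and NK/ILC cells also carried more neutrophil than T-lineage marker UMIs, as given above, and the part of neutrophil RNA was not tested. Of 124 entries of a receptor in a class and a pair of tissues 64 were counted, 33 higher in the first tissue of the pair and 31 lower, beside 14% of all entries of all genes (14392 of 102519). The 33 include cxcr1 in kidney marrow classes other than neutrophils, values that could not be read for the reason given with the cxcr1 levels. In T and NK/ILC cells the intestine stood apart by low cxcr4b and cxcr4a. Its cxcr4a was 61.2 and 60.8 CPM, against 151 and 244 CPM in kidney marrow, 357 and 244 CPM in thymus and 309 and 441 CPM in TLN. The log2 difference of thymus over intestine was 3.22 and 3.65 for cxcr4b and 2.45 and 1.92 for cxcr4a. The ccr2 of ENSDARG00000105363 was 4.67 and 2.06 CPM in intestine against 209 and 243 CPM in kidney marrow, 60.5 and 42.7 CPM in thymus and 288 and 197 CPM in TLN. Intestine had the most ccr7, at 90.3 and 209 CPM, and kidney marrow the least ccr9a, at 500 and 531 CPM. The cxcr3.1 of ENSDARG00000007358 was 9.78 and 16.3 CPM in intestine, against 141 and 112 CPM in kidney marrow, 78.5 and 48.6 CPM in thymus and 48.3 and 102 CPM in TLN. In kidney marrow ccr6b rested on 0 and 2 UMIs, against 8.75 and 24.5 CPM in thymus and 24.6 and 11 CPM in TLN. Kidney marrow and TLN differed by less than 2-fold for cxcr4b with either label. Under the strict cell filter the TLN had no T and NK/ILC class of at least 50 cells in both libraries.

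**Figure D5:**
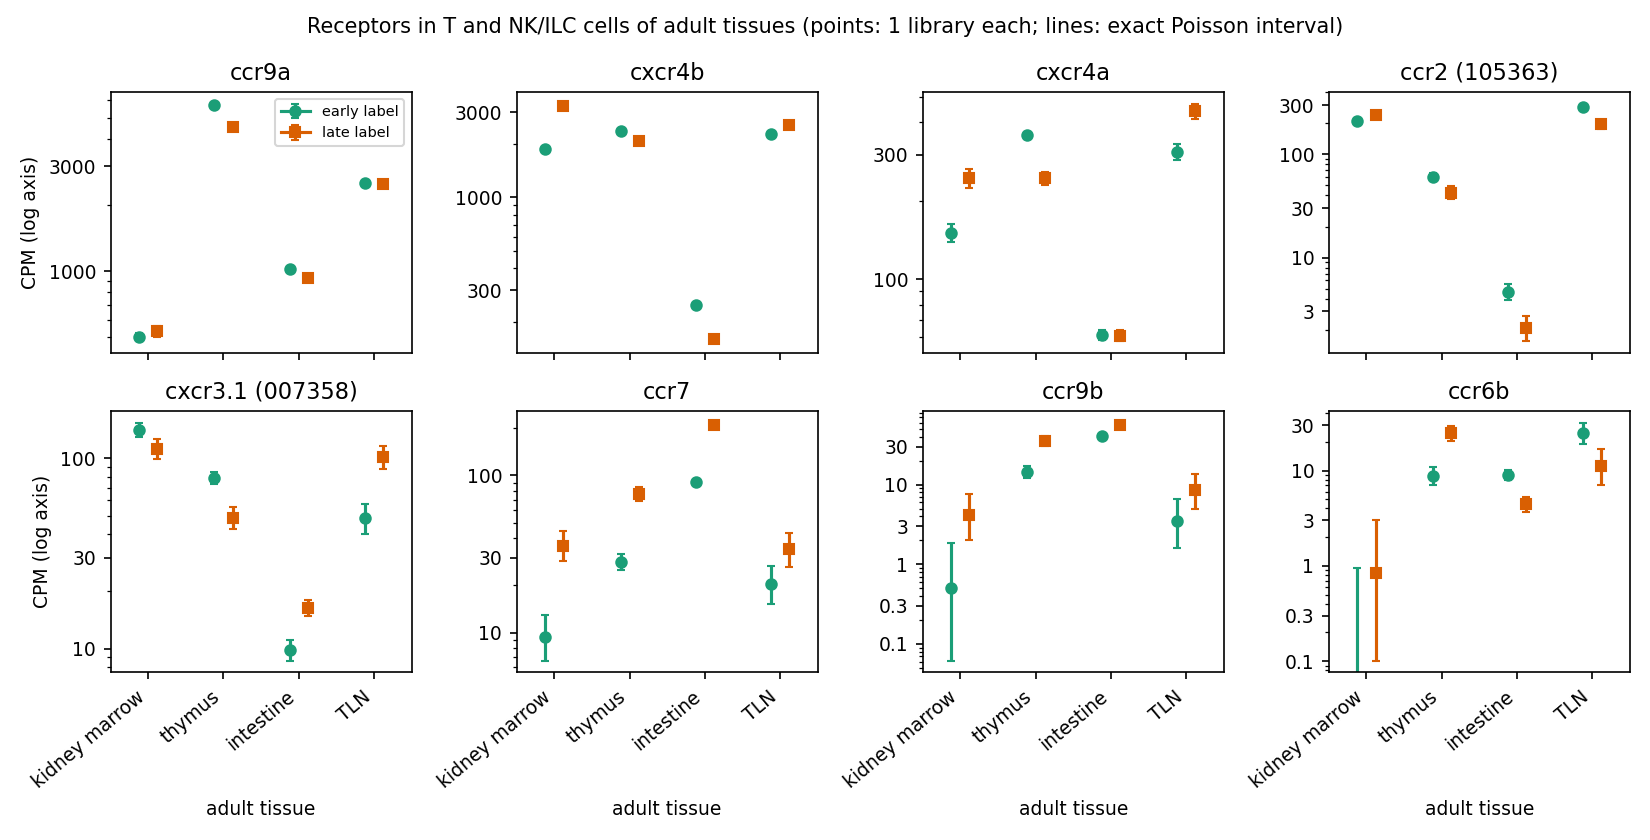
Levels of 8 receptors in T and NK/ILC cells of the adult tissues, on a log axis in CPM; each point is 1 library (circles early label, squares late label) and each line its exact Poisson interval, and the ccr6b value of 0 in early-label kidney marrow has no point. Intestine is lowest for cxcr4b, cxcr4a, ccr2 and cxcr3.1 and highest for ccr7.

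Among the other classes, macrophages of the thymus held more of several receptors than those of kidney marrow, with 0 of 9 compared counted as higher in kidney marrow and 5 as lower, beside 18.8% of all genes in either direction. Of the 5, cxcr1 was no longer counted under the strict cell filter, finer clustering or with unnamed clusters added, cxcr3.2 under these and with median-of-ratios scaling or no doublet removal, and cxcr4b with median-of-ratios scaling, no doublet removal, finer clustering or unnamed clusters added. Thymus and kidney marrow macrophages differed for cxcr3.3, at 71.1 and 79.1 CPM against 2.75 and 3.97 CPM. Their ccr9a was 3553 and 2912 CPM against 265 and 162 CPM. The cxcr1 of thymus macrophages was 438 and 214 CPM. The kidney marrow values, 10.6 and 45.7 CPM, could not be read for the reason given with the cxcr1 levels. Neutrophil markers summed to 2645 and 3544 CPM in thymus macrophages and 9015 and 14770.0 CPM in those of kidney marrow. The cells behind the class differed in other markers too. Macrophage markers summed to 53080.0 and 57130.0 CPM in thymus against 5345 and 5751 CPM in kidney marrow, where they lay below the neutrophil sum. Dendritic markers summed to 48340.0 and 48460.0 CPM against 2171 and 3259 CPM. Both lists hold cd74a, so their sums are not independent. The part of this cell mix in the receptor differences was not tested. B cells of the thymus exceeded those of kidney marrow in ccr9a, with log2 differences of kidney marrow over thymus of -1.51 and -1.49, and in cxcr4b, with -1.92 and -1.13. Thymus neutrophils held ccr9a at 1736 and 1208 CPM against 97.2 and 92.6 CPM in kidney marrow. This neutrophil difference was no longer counted under the strict cell filter. HSPC-marked cells of the intestine had more ccr9a than kidney marrow HSPCs, at 1144 and 1020.0 CPM against 149 and 214 CPM, and less cxcr4b, at 339 and 319 CPM against 843 and 1618 CPM. The ccr9a difference was no longer counted with unnamed clusters added. Of the signalling genes 22 were compared in those HSPCs, with 1 counted as higher and 3 as lower in kidney marrow, beside 6.03% and 5.84% of all genes.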

How the data were processed

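The deposited files hold raw UMI counts per gene and barcode, made by the authors with Cell Ranger 7.1.0 (early and mid larval), 7.0.1 (late larval), 8.0.1 (crispant) and 9.0.0 (adult), per the file headers, on GRCz11 per the submitters' processing notes. Kits were v3.1 (larval tracing) and v4 (crispants, adults), per the labels. The cell filter required 500 UMIs and 200 genes and allowed 20% of UMIs to be mitochondrial; it left 185939 of 201364 barcodes after doublets were scored from simulated doublets and the top scores removed at 0.8% per 1000 cells (v3.1) or 0.4% (v4). Each set of libraries was clustered apart (2000 variable genes without any chemokine receptor, 30 components, 15 neighbours, Leiden resolution 1; scikit-learn 1.9.0, igraph 0.11.9), with no batch integration. Clusters were named from marker lists without receptors; the numbers of markers required (4, or 6 without a leading marker) were set after the clusters had been seen. Counts were summed per class and library. The total UMIs of a library ran from 8303823 to 150042529. Intervals are exact Poisson (levels), Clopper-Pearson (shares) and conditional exact (folds). With 1 library per group no test was made. All receptors are reported; values in full go to those counted in a comparison, the highest of a class and paired copies. The members and lists were chosen with earlier results of these data known. The counting was also run on simulated data, but the settings and outcome of that run are not given here. No counted result is read as checked by it, including the adult comparisons and the results that rest on few UMIs. Alternatives were the pseudocount, fold, minimum UMIs, scaling, cell filter, doublet removal, resolution and all kept cells, and, chosen after seeing the data, unnamed clusters put into classes. Sequences were not used here.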

Additional observations from a re-analysis of the deposited data

Results flagged for a closer look

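The label difference of 2 receptors had opposite directions at the 2 larval ages; neither change with age was tested. Macrophage ccr12b.2 had a log2 difference of early over late label of 1.14 at 6 dpf, from 11.6 against 2.54 CPM with 2 UMIs in the late-label library, and of -1.24 at 10 dpf, from 4.23 against 16.9 CPM. Neutrophil cxcr1 had a log2 difference of 1.82 at 6 dpf and -1.82 at 10 dpf.

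Some receptors had most of their UMIs in clusters that stayed unnamed and so entered no class. In the thymus, unnamed cluster 13, led by epdl1 and aqp3a, had most markers in common with dendritic cells. This cluster held 83.2% of xcr1b.1, 62.5% of ackr3b and 51.6% of xcr1a.1 UMIs. In the larvae, unnamed cluster 9, led by cd74a and mhc2a of antigen presentation, held 92.6% of xcr1b.1 and 54.8% of xcr1a.1 UMIs. In kidney marrow, unnamed cluster 9, with gata2a and spink2.2 among its leading genes, held 69.6% of cxcr2 UMIs and 76.8% of the cxcr3.1 UMIs of ENSDARG00000078177, and unnamed cluster 18 held 69.0% of xcr1a.1 UMIs. In the intestine, unnamed cluster 13, with mrc1b, c1qb and csf1ra among its leading genes, held 79.2% of cxcr1 UMIs, and unnamed cluster 21 held 56.5% of cxcr5 UMIs. In the crispants, unnamed cluster 16 held 51.0% of ccr12b.2 UMIs.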

How the results depend on the processing

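No paired analysis was possible because each group held 1 library with no second replicate number to pair; a fit with tissue, label, age or genotype as a block was not made. The count for R848 was 1, and it became 2 with a pseudocount of 1, 5 at a fold of 1.5 and 2 with unnamed clusters added to classes, a choice made after seeing the data; macrophage cxcr1 was counted in each of these. The rag1 count was 3, and 0 over all kept cells. The count of early against late label in larvae was 3, and 9 with a pseudocount of 1, 12 at a fold of 1.5, 5 with median-of-ratios scaling and 6 without doublet removal. ACKR2 was no longer counted at a minimum of 50 UMIs. The count of 6 against 10 dpf was 1, and 0 under the strict cell filter and 0 over all kept cells. The count of early against late label in adults was 0, and 1 at a fold of 1.5 and 1 under the strict filter, in both cases ccr7. Under the strict filter the TLN, where ccr7 had fallen short of 2-fold, had no T and NK/ILC class to compare. The count over adult tissues was 64 and ranged from 44 to 81. A lower fold or pseudocount can only add counted entries, for receptors and for all other genes alike. The shares of all genes under each alternative are not given here, so these counts are not read as results about receptors. Levels with a UMI in at least 10% of cells numbered 437, and 212 with each cell thinned to 1000 UMIs. Of the counted results 72 were recomputed, all but ccr9a of early against mid label in neutrophils. Direction was kept more often than size. Of the values recomputed from class sums, 285 were classed as moved in size and 278 as the same. With unnamed clusters added, 50 of 72 were classed as moved and 22 as the same. The 72 results kept their direction under each alternative that gave a value, except over all kept cells, where cell classes are mixed. There 13 of 72 had the other direction, 51 were classed as moved and 8 as the same. The log2 difference became 0.28 for thrombocyte ccr9a in rag1 crispants. For kidney marrow over thymus it became -0.18 for cxcr3.2 and -1.76 for ccr2 (ENSDARG00000105363) of T and NK/ILC cells, -0.62 for cxcr3.3 of B cells and 1.44 for cxcr1 of macrophages. For kidney marrow over intestine it became -0.97 for cxcr3.1 (ENSDARG00000007358) of T and NK/ILC cells and 0.60 for cxcr3.2 of macrophages, and for kidney marrow over TLN 0.97 for ccr9a. For thymus over TLN it became 1.85 for ccr2 (ENSDARG00000105363). For intestine over TLN it became 1.21 for cxcr4a, 2.65 for ccr9a, 1.01 for cxcr4b and 1.06 for cxcr3.1 (ENSDARG00000007358). Depth limits ACKR2 and cxcr4b in the early-label endothelial cells, with 0 to 3 UMIs.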
